A study of Mus musculus with 6 samples.

Results

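The genes described here are 10 that handle or sense retinoic acid in the testis: the receptor genes Rara, Rarb and Rarg, the uptake gene Stra6, the synthesis genes Rdh10, Aldh1a1 and Aldh1a2, the binding protein gene Crabp1 and the breakdown genes Cyp26a1 and Cyp26b1. They were chosen by symbol from a table of 22219 genes. All 10 were in the table and all 10 passed the filter on low counts. RNA came from whole testes of mice on day 10, with 3 Control libraries and 3 libraries of a conditional knockout in germ cells (cKO). The cKO was made by crossing Eif5 fl/fl mice with Stra8-Cre mice. Eif5 encodes a factor of translation initiation. The promoter of Stra8, which is itself induced by retinoic acid, drives the Cre in germ cells. By this design Eif5 is meant to be kept in the somatic cells of the organ. In which cells it was lost was not tested. The labels leave the Control genotype unstated, so the presence of Cre, the floxed alleles and the loss of Eif5 cannot be told apart.

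Retinoic acid is made from vitamin A in steps. Retinol enters the cell through STRA6 from its carrier RBP4, is oxidised to retinal by RDH10 and then to retinoic acid by ALDH1A enzymes, while CYP26 enzymes degrade the product and CRABP1 holds it in the cytoplasm. Retinoic acid receptors bind DNA as pairs with RXR partners and switch on their targets when the ligand is bound. In the young testis retinoic acid first comes largely from Sertoli cells, the nurse cells of the tubule, and it drives spermatogonia into differentiation and, through STRA8, toward meiosis. RARA is best known from Sertoli cells and RARG from spermatogonia.

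Recovered reads ran from 32555443 to 48409550 per library. Eif5 itself was lower in cKO (11234 ± 708 against 9035 ± 515 normalised read counts, SD, n = 3 per group; log2 fold change -0.31, limma adjusted p = 0.024), a call lost when cKO replicate 1 (adjusted p = 0.13) or cKO replicate 2 (0.0875) was left out. Markers of Sertoli cells, Leydig cells and all germ cell stages looked for were detected in these testes. Of all genes tested, 1692 were called higher and 1829 lower, and lower genes made up 51.9% of the calls. This share was 75.6% with library totals in place of the deposited size factors. With scaling to the summed reads of 12 Sertoli markers (the Sertoli scaling below) it was 99.7%, and the all-gene median of the log2 fold change moved from 0.01 to -0.43. The summed level of the Sertoli markers was 273589 to 407297 normalised read counts in Control and 441908 to 510334 in cKO, with 7 of 12 markers called higher and 1 lower. Control replicate 1 had the lowest sum, apart from 388992 and 407297 in the other Control libraries. Clu held most of these reads. Without it the sums were 115992 to 150263 and 185708 to 204333. In whole testes, fewer cells of a type and less RNA per cell cannot be told apart.

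Of the 10 retinoid genes, 3 were called higher in cKO (Stra6, Rara and Cyp26b1), 3 lower (Crabp1, Rarg and Aldh1a2) and 4 were not called (Aldh1a1, Rdh10, Rarb and Cyp26a1). That is 6 of 10, where 20.0% of all genes tested were called (9.63% higher and 10.4% lower). The median log2 fold change was 0.26 over the 10 genes and 0.01 over all genes tested. The changes were moderate, between 0.613 and 1.51 times the Control mean. For 7 of the 10 genes, the 6 called and Rdh10, Control and cKO libraries did not overlap, against 36.7% of all genes tested. Within groups the coefficient of variation ran from 2.12% to 34.9% in Control and from 1.80% to 15.1% in cKO, and was highest for Rarb in both.

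**Figure D1:**
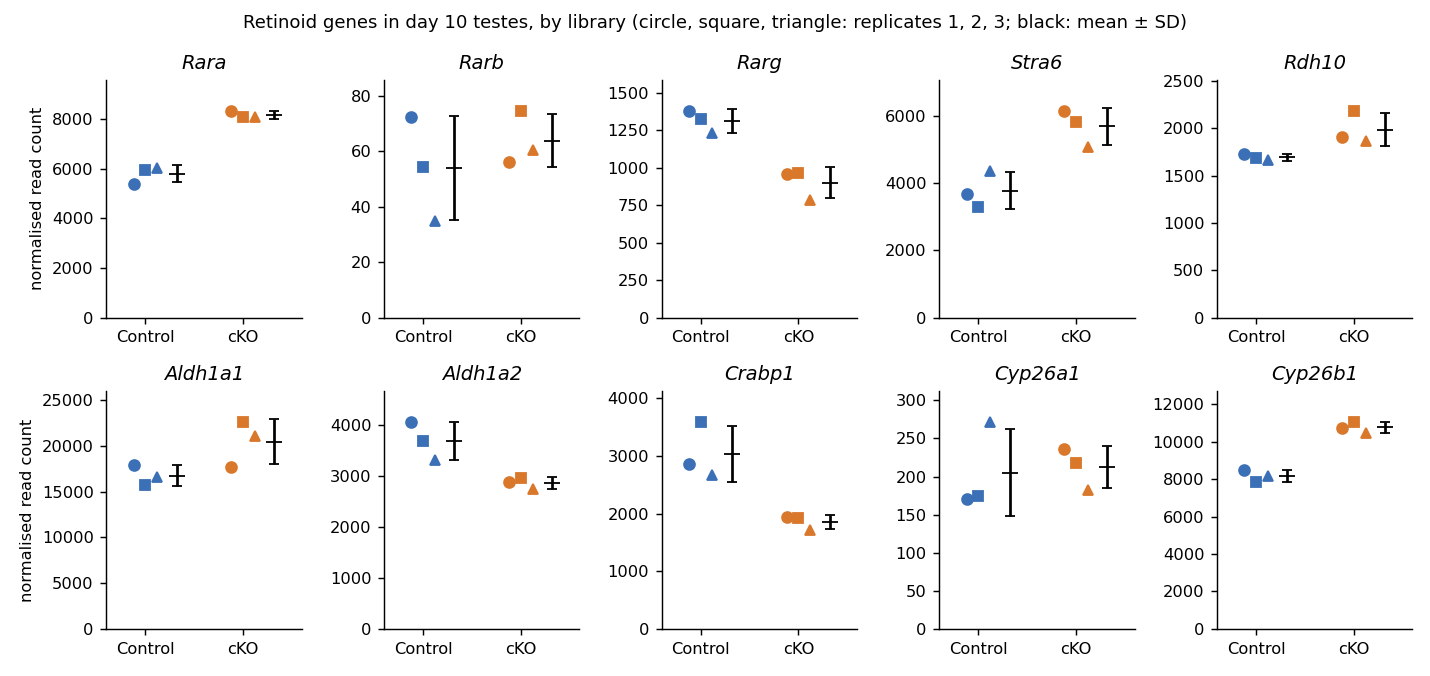
Normalised read counts (vertical axes, linear, from 0) of the 10 retinoid genes in the 3 Control libraries (blue) and 3 cKO libraries (orange), with the mean ± SD in black. All cKO points lie above all Control points for Rara, Stra6, Rdh10 and Cyp26b1 and below them for Rarg, Aldh1a2 and Crabp1, and the groups overlap for Rarb, Aldh1a1 and Cyp26a1.

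Among the receptor genes, Rara rose and Rarg fell with the deposited size factors. Rara read 5402, 5959 and 6045 normalised read counts in Control replicates 1 to 3 and 8349, 8097 and 8090 in cKO. Every cKO library was above every Control library, and the 3 cKO values were within a narrow range. Rara rose 1.41-fold (log2 fold change 0.50, SE 0.0901, limma adjusted p = 0.000643). Scaled to the Sertoli markers its log2 fold change was 0.053 (limma adjusted p = 0.857), -0.032 when Clu was left out of them and 0.18 when Control replicate 1 was left out (adjusted p = 0.293).

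Rarg, the receptor best known from spermatogonia, read 1382, 1328 and 1230 normalised read counts in Control and 959, 963 and 784 in cKO. The lowest Control library stood clear of the highest cKO library, and cKO replicate 3 was the lowest of all. Rarg fell to 0.687 times the Control mean (log2 fold change -0.55, SE 0.111, limma adjusted p = 0.00169), and its log2 fold change was -0.99 with the Sertoli scaling. The summed level of 8 progenitor spermatogonia markers, a stage at which RARG acts, was 14749 to 17025 in Control and 14175 to 15009 in cKO, with overlapping groups. Of these markers Sox3 was called lower and the other 7 were not called. The median log2 fold change of the 8 was -0.29. Sox3, Upp1, Zbtb16, Lin28a, Sall4 and Neurog3 read -0.52, -0.44, -0.30, -0.30, -0.29 and -0.20, while Nanos3 and Ddit4 read 0.22 and 0.26. Ddit4 had the highest counts of the 8. It read 4404 to 4930 normalised read counts in Control and 5067 to 5990 in cKO, with no overlap. The overlap of the sums therefore does not show that these markers were level.

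Rarb is the receptor gene that retinoic acid itself induces in many tissues. It read 72.5, 54.4 and 34.9 normalised read counts in Control and 56.3, 74.7 and 60.6 in cKO. These are low levels, from 32 to 98 recovered reads, and the groups overlapped. Control libraries varied widely. The log2 fold change was 0.28 with a 95% interval of -0.34 to 0.91 (limma adjusted p = 0.55). It was 0.012 without Control replicate 3 and 0.52 without Control replicate 1, and was not called in either case (adjusted p = 0.983 and 0.314).

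Per kilobase of gene model, Rara made up 78.5%, 80.9% and 82.4% of the reads of the 3 receptor genes in Control and 89.0%, 88.5% and 90.5% in cKO. Rarg made up 20.6%, 18.5% and 17.2% in Control and 10.5%, 10.8% and 8.98% in cKO. The receptor pool thus held a larger share of Rara and a smaller share of Rarg in each cKO library than in any Control library. Rarb stayed under 1% in all 6 libraries (0.394% to 0.874%). The ratio of Rara to Rarg per length was 3.82, 4.38 and 4.80 in Control and 8.50, 8.21 and 10.1 in cKO. This ratio is taken within a library and so is the same under any scaling.

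**Figure D2:**
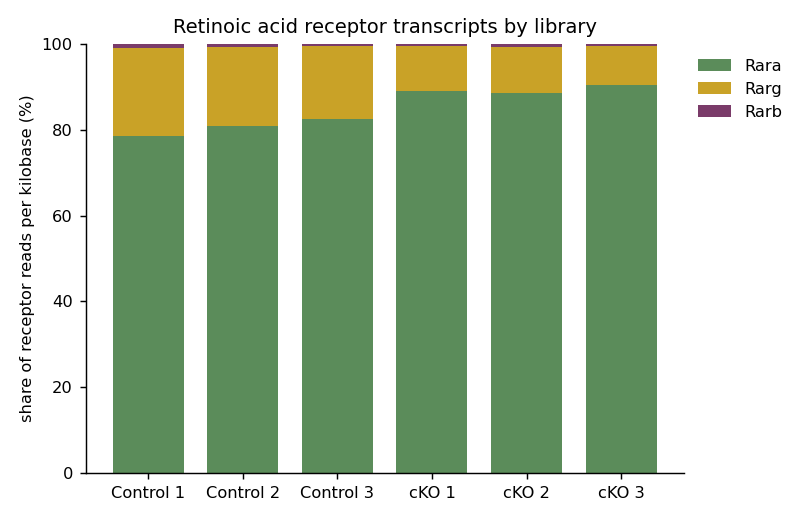
Share of the reads per kilobase of the 3 retinoic acid receptor genes (vertical axis, percent) held by Rara, Rarg and Rarb in each of the 6 libraries. The Rarg share is 17.2% to 20.6% in the Control bars and 8.98% to 10.8% in the cKO bars, and Rarb is a thin band at the top.

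Among the genes of uptake and synthesis, Stra6 rose most. It encodes the membrane receptor that takes retinol from RBP4. Stra6 read 3672, 3286 and 4375 normalised read counts in Control and 6164, 5831 and 5093 in cKO. No cKO library came down to the Control range, although Control replicate 3 was nearest to it. The rise was 1.51-fold (log2 fold change 0.60, SE 0.107, limma adjusted p = 0.000589), and the log2 fold change was 0.15 with the Sertoli scaling (adjusted p = 0.6), or 0.32 with that scaling and without Control replicate 1 (adjusted p = 0.0533). Rdh10, the main retinol dehydrogenase of retinoic acid synthesis, read 1731, 1683 and 1661 in Control and 1906, 2184 and 1866 in cKO. All cKO libraries were above all Control libraries by a small margin, and the gene was not called (log2 fold change 0.23, 95% interval 0.03 to 0.43, limma adjusted p = 0.102; -0.22 with the Sertoli scaling).

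The enzymes that turn retinal into retinoic acid differed from each other. Aldh1a1, the form known from Sertoli cells, read 17912, 15698 and 16577 normalised read counts in Control and 17714, 22580 and 21084 in cKO. The overlap came from cKO replicate 1, which lay within the Control range. Aldh1a1 was not called by limma (log2 fold change 0.29, 95% interval 0.06 to 0.51, adjusted p = 0.0704). It was called higher by DESeq2 (adjusted p = 0.028) and by limma without Control replicate 1 (log2 fold change 0.34, adjusted p = 0.0279), and it read -0.16 with the Sertoli scaling, or 0.072 with that scaling when Control replicate 1 was left out.

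Aldh1a2, the form known from germ cells, read 4052, 3679 and 3310 normalised read counts in Control and 2873, 2967 and 2740 in cKO. Every cKO value was below every Control value. Aldh1a2 fell to 0.777 times the Control mean (log2 fold change -0.36, SE 0.0955, limma adjusted p = 0.0112). That call ended without cKO replicate 3 (log2 fold change -0.33, adjusted p = 0.0609). The ratio of Aldh1a1 to Aldh1a2 per length was 2.03, 1.96 and 2.30 in Control and 2.83, 3.49 and 3.53 in cKO, with no overlap.

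Crabp1, which encodes a cytoplasmic binding protein for retinoic acid found in spermatogonia, fell most of the 10. It read 2853, 3585 and 2661 normalised read counts in Control and 1942, 1919 and 1721 in cKO. Control replicate 2 was high within its group, and the other 2 Control libraries were still above all cKO libraries. The fall was to 0.613 times the Control mean (log2 fold change -0.69, SE 0.108, limma adjusted p = 0.000142), and the log2 fold change was -1.14 with the Sertoli scaling.

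Of the enzymes that break retinoic acid down, Cyp26b1 rose and Cyp26a1 was not called. Cyp26b1, made by somatic cells of the testis, read 8471, 7852 and 8150 normalised read counts in Control and 10751, 11041 and 10471 in cKO. The groups were far apart relative to their spread. Cyp26b1 rose 1.32-fold (log2 fold change 0.40, SE 0.0905, limma adjusted p = 0.00413), but read -0.045 with the Sertoli scaling (adjusted p = 0.876). The sign of that value rests on Control replicate 1: on that scale it stood at 12768 reads, against 8324 and 8252 in the other Control libraries and 8688 to 10303 in cKO. Without it Cyp26b1 read 0.16 with the Sertoli scaling (adjusted p = 0.345), while without Clu in the scaling it read -0.13 with all 6 libraries. Cyp26a1, a gene that retinoic acid induces in many cell types, read 170, 174 and 271 in Control and 236, 218 and 182 in cKO. The cKO values all lay within the Control range, which Control replicate 3 stretched upward. The log2 fold change was 0.07 with a 95% interval of -0.33 to 0.48 (limma adjusted p = 0.835), and it was -0.012 with library totals, -0.37 with the Sertoli scaling and -0.044, -0.027 and -0.0082 without Control replicate 1, Control replicate 2 or cKO replicate 1.

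The calls depended on the scaling. The spacing of the genes could hardly do so, since a scaling divides each library by a factor common to all genes. The like distances given below follow from that arithmetic and are no further support. The Sertoli scaling moved all 10 genes by about the same amount on the log2 scale, between -0.44 and -0.43. With the Sertoli scaling 3 genes were called lower, the same Crabp1, Rarg and Aldh1a2, and 0 were called higher by limma (0 also at an unadjusted p under 0.05; edgeR, with its own scaling, called 3 higher, against 8.96% of all genes tested). All genes moved with it, and 25.1% of all genes tested were then called lower and 0.0854% higher. Relative to the all-gene median under that scaling, Stra6, Rara and Cyp26b1 stood 0.59, 0.48 and 0.39 higher on the log2 scale, and Crabp1, Rarg and Aldh1a2 stood at -0.71, -0.56 and -0.37. With the deposited factors these distances were 0.59, 0.49 and 0.39, and -0.70, -0.55 and -0.37. Without Control replicate 1 the Sertoli scaling moved the all-gene median to -0.26 rather than -0.43, and again 0 of the 10 genes were called higher by limma (1 at an unadjusted p under 0.05) and 3 lower. Beside the genes that rose, the summed Sertoli markers did not overlap between groups and were 1.34 times the Control mean in cKO, and Leydig cell markers were 1.43 times the Control mean, with 7 of 8 called higher. Markers of spermatogonial stem cells, a germ cell class, were also 1.43 times the Control mean, with no overlap (4838 to 5758 in Control and 7150 to 8015 in cKO) and 5 of 8 called higher. Macrophage markers were 1.27 times the Control mean with overlapping groups, and 5 of 7 were called higher. Not all somatic classes rose. Peritubular myoid markers were 0.929 times the Control mean, with no overlap (27040 to 28660 in Control and 24850 to 26318 in cKO). Of these, 2 of 6 were called lower and 0 higher. Stromal fibroblast and endothelial markers were 1.04 and 1.12 times the Control mean with overlapping groups. Of the 6 stromal markers 2 were called higher and 0 lower, and of the 6 endothelial markers 1 was called higher and 1 lower. Col1a1 and Col1a2 held most of the stromal sum and were not called (-0.09 and -0.06 on the log2 scale). Mesothelium and epididymis markers were 1.33 times the Control mean with no overlap. Of 6 listed, 4 were matched, 1 was called higher and 0 lower, and their log2 fold changes ran from -0.21 to 0.47. Beside the genes that fell, the summed markers of differentiating spermatogonia were 20070.3 to 22235 in Control and 10646 to 12901 in cKO, with 7 of 8 called lower, and those of meiotic prophase 16479 to 20235 and 6133 to 7446, with 8 of 8 called lower. Their part in the changes of the retinoid genes was not tested.

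**Figure D3:**
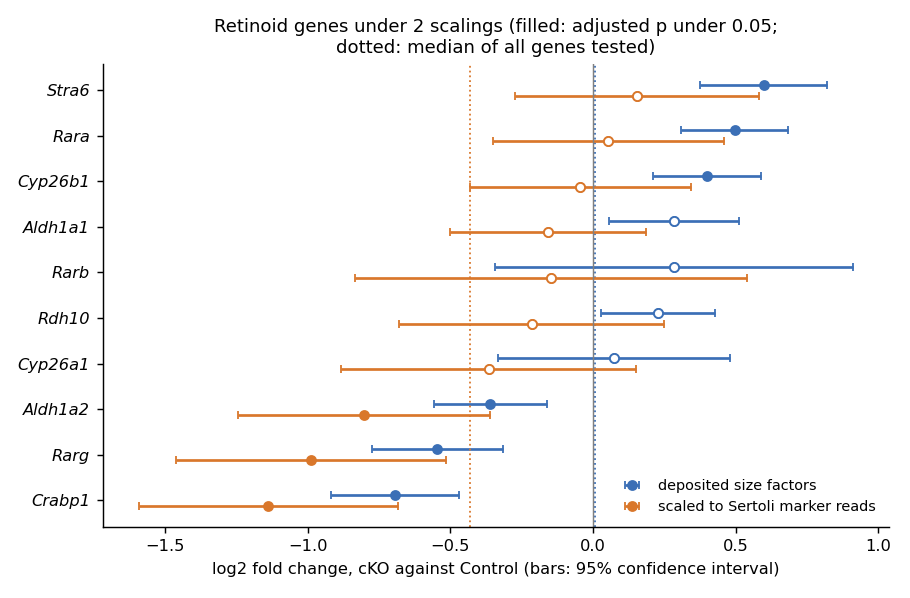
Log2 fold change of each retinoid gene, cKO against Control (horizontal axis; bars are 95% confidence intervals), with the deposited size factors (blue) and after scaling to the Sertoli markers (orange); filled points are called and dotted lines mark the median of all genes tested. Crabp1, Rarg and Aldh1a2 are lower and called under both, while Stra6, Rara and Cyp26b1 are, of these 2 scalings, called higher with the deposited factors alone and read 0.15, 0.053 and -0.045 with the Sertoli scaling.

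Levels of different genes were compared per kilobase of gene model. In Control testes Crabp1 (3782 ± 608 normalised reads per kilobase, SD, n = 3) and Aldh1a1 (3388 ± 226) were the most abundant of the 10 and overlapped each other. Aldh1a2 (1626 ± 164) and Cyp26b1 (1524 ± 57.8) came next and also overlapped, followed by Rara (1329 ± 79.9), Stra6 (648 ± 94.8), Rdh10 (407 ± 8.60), Rarg (308 ± 18.1), Cyp26a1 (104 ± 28.9) and Rarb (10.2 ± 3.57), each apart from its neighbours. In cKO testes Aldh1a1 (4144 ± 505) stood alone at the top, Crabp1 (2320 ± 152) was next, and Aldh1a2 (1263 ± 50.4) came after Cyp26b1 (2009 ± 53.2) and Rara (1874 ± 33.8). The gene models may differ from those of the deposited table, whose annotation is not given.

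The promoters of the 10 genes were searched for retinoic acid response elements, the paired sites that the receptors bind. The search was for a direct repeat of the receptor core motif with 5 bases (DR5) or 2 bases (DR2) between the copies, on both strands, from 250 bases before to 50 after each RefSeq start site (GRCm38.p6). Of the 10 genes, 9 had an entry, with 17 promoters, and 2 genes had a match, a DR5 each. Over 32851 promoters of the same length 0.0974% held a DR5 and 0.268% a DR2. The matching stretches are shown, and they belong to Rarb and Cyp26a1, both among the genes not called. Which of the 10 genes respond to retinoic acid in these testes was not tested. Capitals mark the DR5. In Rarb it lies on the gene's strand from 53 to 37 bases before the start (chr14:16575477-16575579, gene on the minus strand), and in Cyp26a1 on the opposite strand from 32 to 16 bases before it (chr19:37697726-37697807, gene on the plus strand).
Rarb: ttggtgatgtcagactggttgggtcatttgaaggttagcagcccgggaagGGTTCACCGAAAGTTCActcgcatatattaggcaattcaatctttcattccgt
Cyp26a1: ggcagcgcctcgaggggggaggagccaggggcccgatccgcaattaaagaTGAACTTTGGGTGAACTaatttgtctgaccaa
A match is a description of these letters and does not show that a receptor binds there in these cells.

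Other genes of the pathway were taken from a list of 42, of which 37 were matched in the table and 32 passed the filter. Of these 32, 4 were called higher and 4 lower, a share near that of all genes tested, and the median log2 fold change was 0.14. By limma 0 were called higher when cKO replicate 2 was left out (5 at an unadjusted p under 0.05), and 2 when cKO replicate 1, cKO replicate 3 or Control replicate 2 was. Leaving out Control replicate 3 left 2 called lower. With library totals 1 was called higher, and with the Sertoli scaling 0 higher and 6 lower. In uptake, storage and transport 2 of 8 were called, both lower, where 10.4% of all genes tested were called lower. Rbp4, the gene for the retinol carrier in blood that STRA6 binds, read 1377, 1453 and 1488 normalised read counts in Control and 809, 688 and 846 in cKO. All cKO libraries were far below the Control range. Rbp4 fell to 0.543 times the Control mean (log2 fold change -0.89, SE 0.109, limma adjusted p = 9.72e-06), while its receptor gene Stra6 rose. Dgat1, an acyltransferase gene that can make retinyl esters, also fell (log2 fold change -0.36, limma adjusted p = 0.0237), a call lost when Control replicate 3 (0.0657), cKO replicate 2 (0.0982) or cKO replicate 3 (0.118) was left out.

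Among dehydrogenases and reductases of retinol and retinal, 3 of 11 were called higher and 1 lower, where 9.63% of all genes tested were called higher and 10.4% lower. Their median was 0.33 on the log2 scale. All cKO libraries were above all Control libraries for 8 of these genes, against 18.3% of all genes tested. The alcohol dehydrogenase gene Adh4 read 145, 121 and 135 normalised read counts in Control and 214, 214 and 189 in cKO (log2 fold change 0.61, limma adjusted p = 0.0214; 0.18 with the Sertoli scaling). Adh1, of the same family, had a log2 fold change of 0.44 (adjusted p = 0.0235) and Dhrs3, a retinal reductase gene induced by retinoic acid, one of 0.34 (adjusted p = 0.0455); with the Sertoli scaling they read 0.00 and -0.10. Rdh12, a retinal reductase gene, was called lower at a low level (32.9 ± 7.76 against 13.0 ± 5.77 normalised read counts, SD, n = 3 per group; limma adjusted p = 0.0498). Adh5, the most abundant per length of this role, did not pass (0.20 on the log2 scale, limma adjusted p = 0.124). These calls were close to the threshold. As adjusted p, Adh1 was at 0.0769 with library totals, 0.0928 without Control replicate 2 and 0.19 without cKO replicate 2, while Adh4 was at 0.0636 without Control replicate 2, 0.0766 without cKO replicate 1 and 0.0795 without cKO replicate 2. The call of Dhrs3 ended without Control replicate 1 or any 1 cKO library (0.146, 0.194, 0.0709 and 0.087), with library totals (0.154), without the filter (0.0508) and with the replicate block (0.0611). That of Rdh12 ended with edgeR (0.0545), a pseudocount of 0.5 (0.0561), no filter (0.0528), the replicate block (0.0663) and without any 1 library other than cKO replicate 3 (0.0572 to 0.198).

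Of 4 further genes of retinal oxidation, breakdown and cellular binding, 0 were called by limma, edgeR or DESeq2. By limma 20.0% of all genes tested were called. By each of the 3 tools 1 of the 4 genes was higher and 2 lower at an unadjusted p under 0.05. The most abundant per length was Fabp5, which encodes a fatty acid-binding protein that can carry retinoic acid (log2 fold change 0.26, limma adjusted p = 0.0828). Crabp2, whose protein carries retinoic acid to the nucleus, and Cyp26c1, of the breakdown family, were at low levels and had all cKO libraries below all Control libraries. Crabp2 had a log2 fold change of -1.09 (limma adjusted p = 0.0652) and Cyp26c1 one of -1.18 (adjusted p = 0.0761). Both were called lower with the Sertoli scaling (adjusted p = 0.0139 and 0.0111), and Cyp26c1 also without cKO replicate 2 (0.0475). Of 9 partner receptors and cofactors, 1 was called higher and 1 lower, a share near that of all genes tested (9.63% higher and 10.4% lower). The RXR partner genes Rxra and Rxrb had log2 fold changes of 0.11 (95% interval -0.09 to 0.32) and -0.11 (-0.31 to 0.10). Ncoa3, a receptor coactivator gene, fell (log2 fold change -0.38, limma adjusted p = 0.00746) and Nrip1, a corepressor gene induced by retinoic acid, was called higher (0.29, adjusted p = 0.043; -0.16 with the Sertoli scaling, 0.093 with it when Control replicate 1 was left out). The call of Nrip1 ended with library totals (adjusted p = 0.205), with the replicate block (0.0622) and when any of Control replicate 2 (0.138), Control replicate 3 (0.0789), cKO replicate 2 (0.174) and cKO replicate 3 (0.154) was left out.

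**Figure D4:**
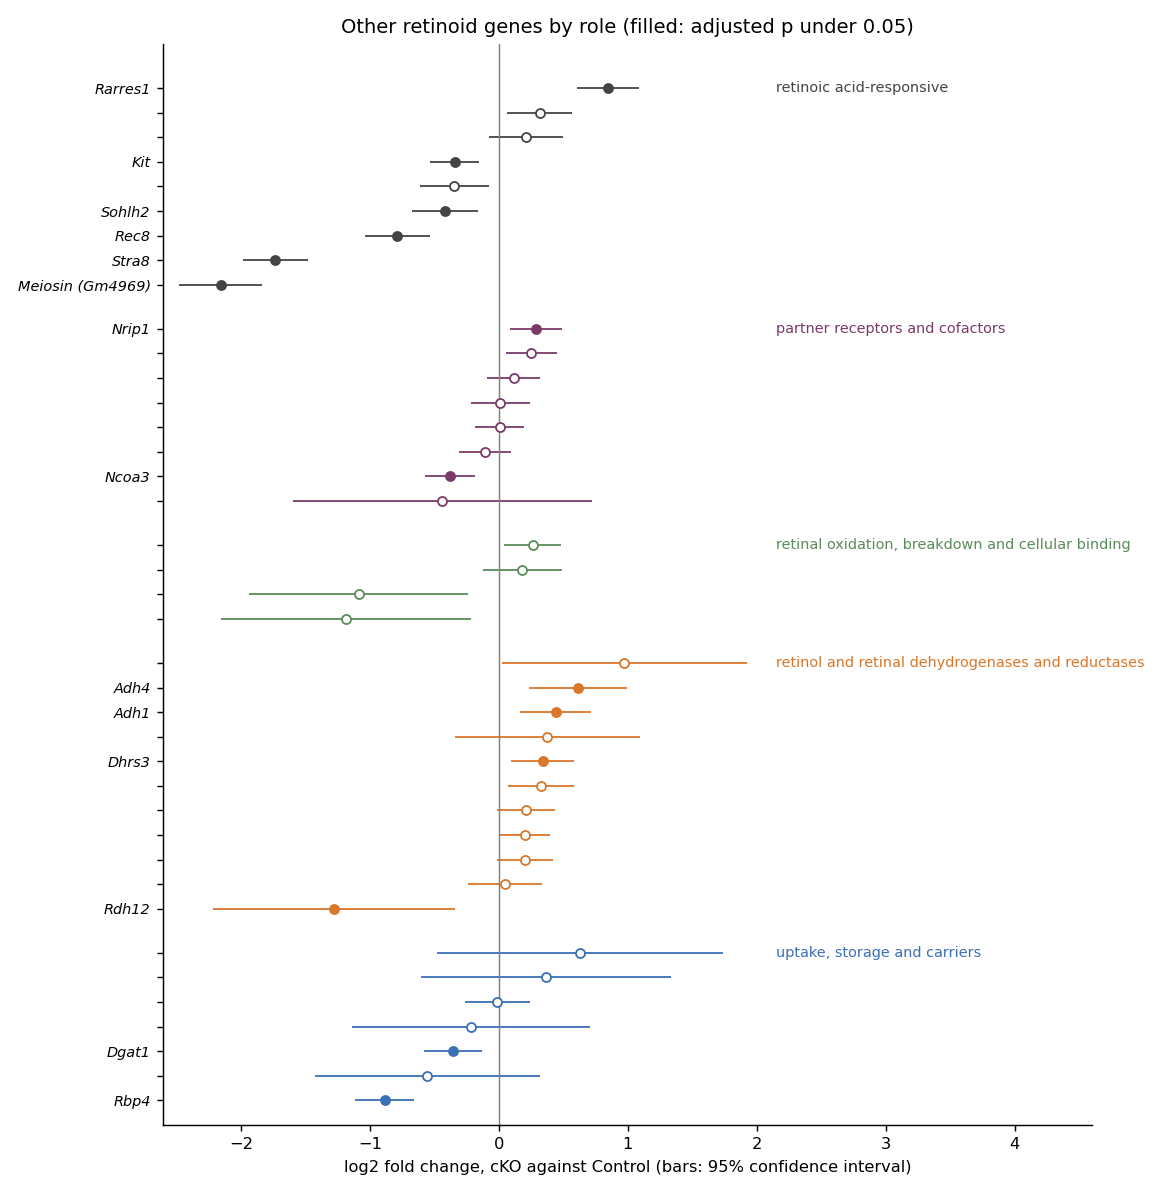
Log2 fold change, cKO against Control (horizontal axis; bars are 95% confidence intervals), of other retinoid pathway genes and retinoic acid-responsive genes that passed the filter, grouped by role, with called genes filled and named. Stra8 and Meiosin lie far to the left at -1.73 and -2.16 and Rarres1 to the right at 0.85, while most dehydrogenase genes lie between 0.05 and 0.61; the scale is that of the deposited size factors, and with the Sertoli scaling 0 genes of either list were called higher by limma, and 0 at an unadjusted p under 0.05.

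Genes known to respond to retinoic acid also went both ways. Of 11 listed, 10 passed the filter, 5 were called lower and 1 higher, where 10.4% of all genes tested were called lower and 9.63% higher. The median log2 fold change was -0.38. All 5 that fell act in germ cell differentiation or meiosis, and 3 of them, Stra8, Kit and Sohlh2, are also in the marker list of differentiating spermatogonia above. Stra8, the gate to meiosis, read 5906, 5487 and 4319 normalised read counts in Control and 1737, 1695 and 1290.4 in cKO. The highest cKO library was far below the lowest Control library. Stra8 fell to 0.301 times the Control mean (log2 fold change -1.73, SE 0.122, limma adjusted p = 7.83e-09). Meiosin, the partner of STRA8, listed as Gm4969, fell more (log2 fold change -2.16, limma adjusted p = 8.71e-09), and the meiotic cohesin gene Rec8 less (-0.79, adjusted p = 0.000117). The receptor tyrosine kinase gene Kit (-0.34, limma adjusted p = 0.0124) and the transcription factor gene Sohlh2 (-0.42, adjusted p = 0.0222) also fell. The call of Kit was lost without cKO replicate 2 (adjusted p = 0.0696) or cKO replicate 3 (0.0876) and that of Sohlh2 without Control replicate 1 (0.0797) or cKO replicate 3 (0.168). Without cKO replicate 3 the list had 3 genes lower and 2 higher.

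Rarres1, named for its response to retinoids, rose. It read 1945, 2361 and 2824 normalised read counts in Control and 4698, 3828 and 4191 in cKO. The groups were well apart, and Rarres1 rose 1.78-fold (log2 fold change 0.85, SE 0.117, limma adjusted p = 3.73e-05). With the Sertoli scaling it read 0.40 and was not called (adjusted p = 0.167). It was the most abundant of these genes per length. Without Control replicate 1 it was called higher with that scaling too. Rarres2, like Rarres1 not particular to germ cells, was not called (0.21, limma adjusted p = 0.309). Tgm2, a transglutaminase gene induced by retinoic acid, was not called either (0.32, adjusted p = 0.067). It was called higher when cKO replicate 3 was left out (0.47, adjusted p = 0.00974) and in the fit with the replicate block (0.0412). Sohlh1, listed also among the markers of differentiating spermatogonia, was not called (-0.35, limma adjusted p = 0.062), with all cKO libraries below all Control libraries. Sohlh1 was called lower with library totals (limma adjusted p = 0.024), the Sertoli scaling (0.0078) and the replicate block (0.0286). The same held without Control replicate 1 (0.0402), Control replicate 3 (0.0489) or cKO replicate 2 (0.0332).

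Profiles over the 6 libraries were compared across all genes tested by Pearson correlation of log2 values, as a description. The genes named here are the nearest found in a search over 17570 genes with 6 libraries, and their correlations were 0.996 to 0.999. The nearest genes were Sft2d2 and Atf4 for Rara, Ripk4 and Mcm7 for Rarg, Nfxl1 and Fnip2 for Aldh1a2, Arrdc3 and R74862 for Cyp26b1, Trp53bp1 and Pfdn6 for Crabp1, and Cd53 and Crybb3 for Stra6. Their direction was set by this choice, since the members already differed between the groups. Atf4 is the transcription factor gene of the integrated stress response (log2 fold change 0.69, limma adjusted p = 2.72e-05). Mcm7 is a replication helicase gene (-0.35, adjusted p = 0.011). These fold changes are no finding beyond the choice of genes. Sft2d2, R74862, Pfdn6, Cd53 and Crybb3 were not called (limma adjusted p = 0.0954, 0.155, 0.0583, 0.0662 and 0.232).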

How the data were processed

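Whole testes of day 10 mice were measured by mRNA sequencing in 6 libraries, 3 per group, grouped and numbered by sample title. StringTie 1.3.1 and RSEM appear, with no role, in the submitters' processing notes. The aligner, build, annotation and strand setting were taken as not given in the sources used here; none was assumed. The deposited table is named for raw counts but holds a normalised signal: 100% of each column's entries came out as an integer times 1 step (tolerance 1e-06), and 1 over the step was the library's median-of-ratios size factor. Among recovered counts of 1 to 20, 78.1% were even. Recovered totals ran from 32555443 to 48409550 reads.

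Genes were filtered with filterByExpr (minimum count 10), which left 17570 of 22219. The 2-sided test was limma 3.58.1 (variance prior following the mean level) on log2(value + 2), with Benjamini-Hochberg adjustment over all genes tested, in R 4.3.3. Calls were made at adjusted p under 0.05. Fold changes on this scale understate those of genes at low levels. edgeR 4.0.16 and DESeq2 1.42.0 on the recovered reads, other scalings, pseudocounts of 0.5 and 8, no filter, a replicate block and leaving out each library were alternatives. A Sertoli scaling without Clu, and one without Control replicate 1, were added after seeing the data. The fitting steps were tested on simulated data. Lengths are the union of exons in GENCODE M21, and promoters are from RefSeq (GRCm38.p6).

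The 10 members and the other lists were chosen with earlier results of these data known. All members are named. Of the other lists, the called genes and the most abundant gene per length in each role are named, and, for each called member, the 2 genes with the most similar profile. Other names were chosen after their values were seen. The values of some listed genes are not reported here, although the counts include them. The labels do not tell whether each library is a different animal. The p-values therefore rest on the scatter among these 6 libraries, and that scatter could be technical.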

Additional observations from a re-analysis of the deposited data

How the results depend on the processing

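Over 16 alternatives for each of the 10 retinoid genes, 134 of 160 kept both direction and side of the threshold. Of the others, 17 reversed direction, and with direction kept 7 lost the call and 2 gained it. The tally is no measure of robustness. The fits without the filter and with the replicate block leave the fold change as it was, so direction could not change there. Genes that were not called in either fit also count as kept. With the Sertoli scaling the log2 fold changes were 0.053 for Rara and 0.15 for Stra6, no longer called, and turned to -0.045 for Cyp26b1, -0.15 for Rarb, -0.16 for Aldh1a1, -0.22 for Rdh10 and -0.37 for Cyp26a1. Without Clu in that scaling, chosen after seeing the data, they were -0.032 for Rara, 0.069 for Stra6, -0.13 for Cyp26b1, -0.23 for Rarb, -0.24 for Aldh1a1, -0.30 for Rdh10 and -0.45 for Cyp26a1. With the Sertoli scaling and without Control replicate 1, also chosen after seeing the data, they were 0.18 for Rara, 0.32 for Stra6 and 0.16 for Cyp26b1, not called, and -0.019 for Rdh10 and -0.30 for Cyp26a1. In the Sertoli-scaled fits that include Clu, limma gave genes of like level 1 common spread, so the p-values there take little account of a gene's own scatter. These scalings divide by a sum that was itself higher in cKO. With library totals Cyp26a1 read -0.012, and by DESeq2 Aldh1a1 read 0.29 and was called. Leaving out 1 library gave 0.21 to 0.39 for Aldh1a1, -0.43 to -0.29 for Aldh1a2, -0.044 to 0.29 for Cyp26a1 and 0.012 to 0.52 for Rarb.

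Counts moved as follows. With the Sertoli scaling, with or without Clu, 0 of the 10 genes, 0 other pathway genes and 0 responsive genes were called higher by limma (at an unadjusted p under 0.05, 0 of each, except 1 responsive gene without Clu; edgeR, with its own scaling, called 3, 4 and 1). Without Clu 15 other pathway genes were called lower. With the Sertoli scaling and without Control replicate 1, 0 of the 10 genes and 0 pathway genes were called higher by limma (1 and 0 at an unadjusted p under 0.05), 7 pathway genes lower, and 121 of all genes higher and 4303 lower. With library totals 1 pathway gene was called higher. Over all genes 807 were called higher with library totals, 15 with the Sertoli scaling and 26 without Clu, and 4417 and 9724 lower in the last 2. Leaving out 1 library gave 0 to 5 pathway genes higher and 2 to 3 lower, 1 to 2 responsive genes higher and 3 to 6 lower, and 916 to 1764 of all genes higher. The cause of these moves was not tested.

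The labels do not say whether the replicate numbers mark pairs. Deviations of same-numbered libraries correlated at -0.05, -0.01 and 0.05, and those of other-numbered libraries at -0.07 to 0.08. With the replicate block 3 of the 10 genes were called higher and 3 lower, and 2 responsive genes higher and 6 lower. Rarb had 32 to 98 reads per library and the widest spread of the 10 genes; whether depth limits its call was not tested.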
